A study of Mus musculus with 18 samples.

Results

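Mitochondrial ribosomal proteins were followed at the RNA level in the apex of mouse hearts given a short hairpin RNA (shRNA) against Lmna, with or without added lamin. They were taken as the protein-coding genes whose symbol is Mrpl or Mrps followed by a number, which gave 78 of the 54532 genes counted, 49 of them Mrpl (large subunit by name) and 29 Mrps (small subunit by name). The 18 poly-A libraries formed 6 groups of 3 libraries in 2 batches, named in the labels after the lamin they held. Batch LC held hearts labelled Lmna shRNA with lamin C, hearts labelled Lmna shRNA, and controls. Batch LA held hearts labelled Lmna shRNA with lamin A, hearts labelled Lmna shRNA, and controls. All 6 groups were labelled WT in genotype, and the series used the vector rAAV9, an adeno-associated virus, for delivery in a model of dilated cardiomyopathy made by lowering Lmna. What the controls received, the promoters in the vectors, and the age, sex and strain of the mice are not given in the sources used here, and nothing states that libraries came from separate litters or cages. Each lamin was present in 1 batch, so lamin and batch cannot be told apart except through the controls and shRNA hearts of that batch.

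The mitoribosome is the ribosome inside mitochondria. It translates the few messenger RNAs of mitochondrial DNA, which encode core subunits of the respiratory chain and of ATP synthase. Its ribosomal RNAs are made in the organelle, while all its proteins are encoded in the nucleus, made in the cytosol and imported. The heart depends on oxidative phosphorylation, and inherited variants of several of these genes cause cardiomyopathy in humans.

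Library totals ran from 31418657 to 41259968 counts. CPM stands for counts scaled to a common library size, after TMM normalisation. Lmna itself was not lower in the hearts labelled shRNA, and its change against controls was 0.06 ± 0.08 (edgeR adjusted p = 0.578, batch LC) and 0.11 ± 0.08 (edgeR adjusted p = 0.258, batch LA). Directions stated for these hearts therefore go by their labels. Changes are log2 fold changes ± standard error from edgeR's quasi-likelihood test with 3 libraries a group, and calls were made where the p adjusted by Benjamini-Hochberg over all 17876 tested genes was under 0.05. All 12 cardiomyocyte markers stood at 1 CPM or more in every group, so the libraries carried the RNA of heart muscle. Replicate 3 of the shRNA hearts of batch LC stood apart from its mates: the members took 0.252% of its counts, against 0.295% and 0.289% in the other 2, and their median change is also given without it. Replicate 3 of the controls of batch LC stood apart as well: its number in the labels is far from those of its mates and next to that of control replicate 3 of batch LA. Its counts differed more from those of controls 1 and 2 (chi-square per degree of freedom of 20.7 and 17.2) than these did from each other (6.38). Kdr, an endothelial marker, stood at 285 CPM in it, against 188 and 185 CPM in its mates. The controls of batch LA held 287, 272 and 284 CPM of Kdr, so in this marker it was nearer to them. Whether it belongs with them was not tested. Without replicate 3 of both control groups 71 and 70 members were lower with shRNA, beside 5189 and 5079 of all 18271 genes.

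In the controls the mitochondrial ribosomal proteins spanned a wide range of levels per length. On the FPKM scale (fragments scaled to gene length and library size), the highest over the 6 controls were Mrpl12, the counterpart of the bacterial stalk protein L7/L12, at 88.6 ± 1.92 (SD, n = 6), Mrps23 at 88.5 ± 2.83 and Mrps21 at 87.6 ± 3.57. These 3 did not differ beyond their spread. The lowest that were counted were Mrps22 at 4.9 ± 0.493 FPKM, Mrpl17 at 4.71 ± 0.279 FPKM and Mrps10 at 2.34 ± 0.234 FPKM, of which Mrps22 and Mrpl17 did not differ beyond their spread. The median of the 77 members with counts was 18.9 FPKM, with 55 members above 10 FPKM and 9 above 50 FPKM. Mrpl53, a protein of the stalk base, had 0 counts in all 18 libraries, where 3 counts would equal between 0.0622 and 0.108 CPM. It overlaps Gm42688 on its own strand and Ccdc142os on the other, and whether reads there were left unassigned was not tested. It did not pass the filter on low counts, so 77 members were tested.

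**Figure D1:**
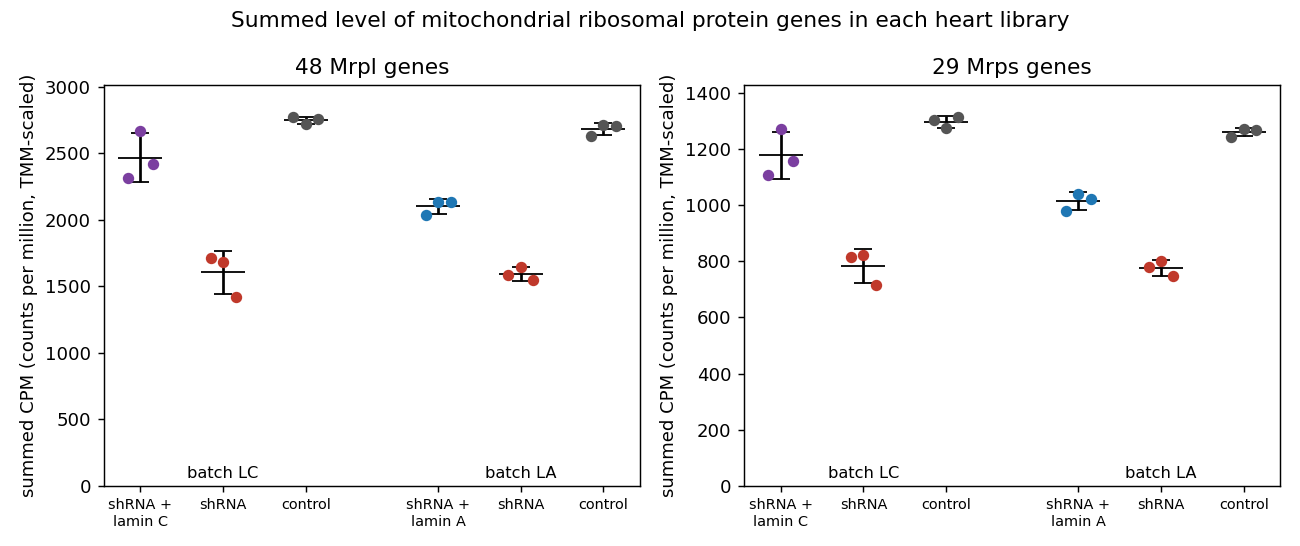
Summed CPM of the 48 tested Mrpl genes (left) and the 29 Mrps genes (right) in each library, by group, with batch LC on the left and batch LA on the right of each panel. Points are libraries, and bars are the mean and SD of 3. In both panels the shRNA hearts lie below the controls without overlap, and the lamin hearts lie between the 2 group means.

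Hearts labelled shRNA had less RNA for nearly the whole set of mitochondrial ribosomal proteins than controls, with close medians in the 2 batches. In batch LC 71 of the 77 tested members were lower and 0 higher, with a median change of -0.73. For comparison, 29.6% of all genes tested were called lower and 33.3% higher, and the median over all genes was 0.05. In batch LA 71 of 77 were lower and 0 higher, with a median of -0.71, beside 29% of all genes called lower and a median over all genes of 0.05. At an unadjusted p under 0.05, and likewise with DESeq2 and limma, no member was higher in either batch. The members called lower in batch LC numbered 71, and 70 of them were among the 71 called lower in batch LA.

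Summed over the 77 members, the 3 shRNA libraries of batch LC held 2528, 2508 and 2137 CPM, against 4074, 3995 and 4074 CPM in the controls. The 3 shRNA libraries of batch LA held 2367, 2448 and 2293 CPM, against 3873, 3983 and 3971 CPM in the controls. The groups did not overlap in either batch, and the shRNA library with the lowest sum was the replicate 3 named above. Without it the median change in batch LC was -0.65, and between 69 and 71 members were called lower when any 1 library of that comparison was left out. In bulk tissue, fewer cells of a type and less RNA per cell cannot be told apart.

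Members that changed more in 1 batch also changed more in the other. Across the 77 members the changes of batch LC and batch LA, which share no library, had Pearson's r = 0.968 and Spearman's rho = 0.969, given as a description. No member differed between the batches in its shRNA effect by edgeR at the adjusted threshold, where 0.00559% of all genes were called (1 of 17876). DESeq2 and limma also called 0 members, and at an unadjusted p under 0.05 there was 1. The near absence of calls over all genes rested in part on control replicate 3 of batch LC. Without it, 22 of all genes were called lower and 25 higher, and still 0 members.

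**Figure D2:**
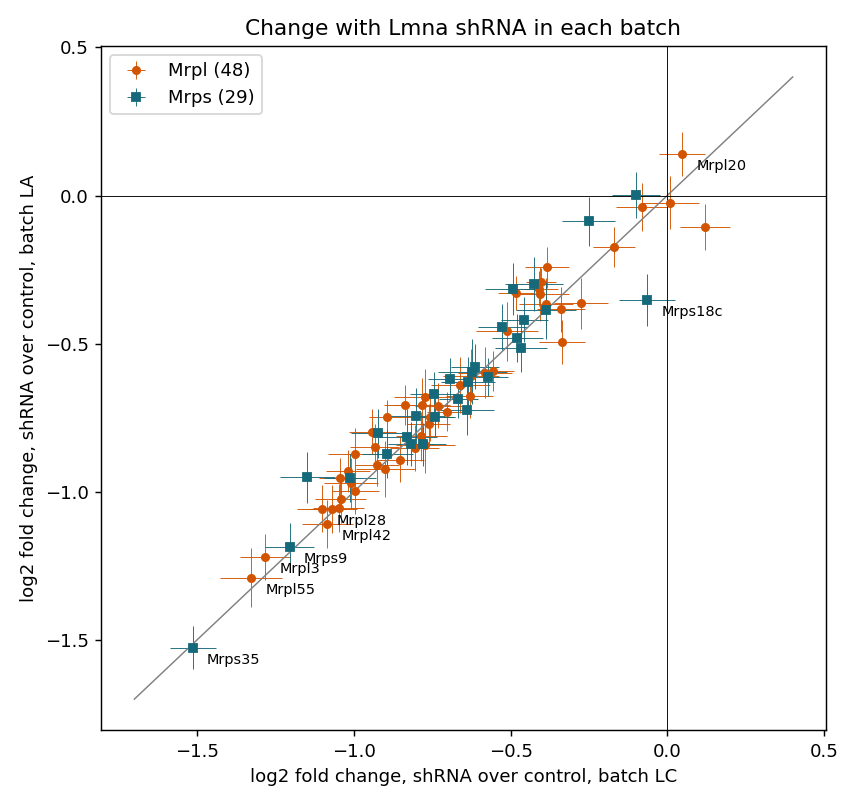
Log2 fold change of shRNA over control for each tested member in batch LC (horizontal) and batch LA (vertical), with standard errors, for 48 Mrpl genes (circles) and 29 Mrps genes (squares). The grey line marks equal change. Members lie along it between Mrps35 (-1.51 and -1.53) and Mrpl20 (0.05 and 0.14), and Mrps18c stands to its right.

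The deepest fall was that of Mrps35, a small-subunit protein with no bacterial counterpart (ENSMUSG00000040112, mm10 chr6:147042764-147073991, plus strand). It had 27.5, 28.7 and 22.9 CPM in shRNA hearts, against 72.5, 75.1 and 78.5 CPM in controls of batch LC. In batch LA it had 26.2, 24.9 and 23.5 CPM in shRNA hearts, against 70.6, 71.7 and 72.6 CPM in controls. Every shRNA library lay far below the lowest control of its batch. The changes were -1.51 ± 0.07 (edgeR adjusted p = 2.01e-12) and -1.53 ± 0.07 (adjusted p = 2.38e-12).

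Mrpl55, a protein of the central protuberance at the top of the large subunit (ENSMUSG00000036860, mm10 chr11:59202486-59206134, plus strand), had 24, 24.2 and 16.8 CPM in shRNA hearts, against 51.1, 53.9 and 58.2 CPM in controls of batch LC. In batch LA it had 19.6, 21.9 and 20.7 CPM in shRNA hearts, against 49.0, 52.0 and 51.4 CPM in controls. Its groups did not overlap, and the changes were -1.33 ± 0.10 and -1.29 ± 0.10. Mrpl3, whose human variants cause cardiomyopathy (ENSMUSG00000032563, mm10 chr9:105053239-105079888, plus strand), had 41.9, 46.5 and 37.3 CPM in shRNA hearts, against 101.6, 103.9 and 100.3 CPM in controls of batch LC. In batch LA it had 40.5, 39.9 and 39.3 CPM in shRNA hearts, against 89.6, 90.7 and 98.8 CPM in controls. Again no shRNA library reached a control, and the changes were -1.28 ± 0.08 and -1.22 ± 0.08. The next 3 in order were Mrps9, the counterpart of bacterial S9 (-1.21 ± 0.08 and -1.19 ± 0.08), Mrpl42 (-1.08 ± 0.08 and -1.11 ± 0.08) and Mrpl28, the counterpart of bacterial L28 (-1.10 ± 0.08 and -1.06 ± 0.08). All 6 were called in both batches (largest edgeR adjusted p = 1.22e-09, that of Mrpl55 in batch LA), and 14 members in batch LC and 9 in batch LA fell by 1 or more on the log2 scale.

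**Figure D3:**
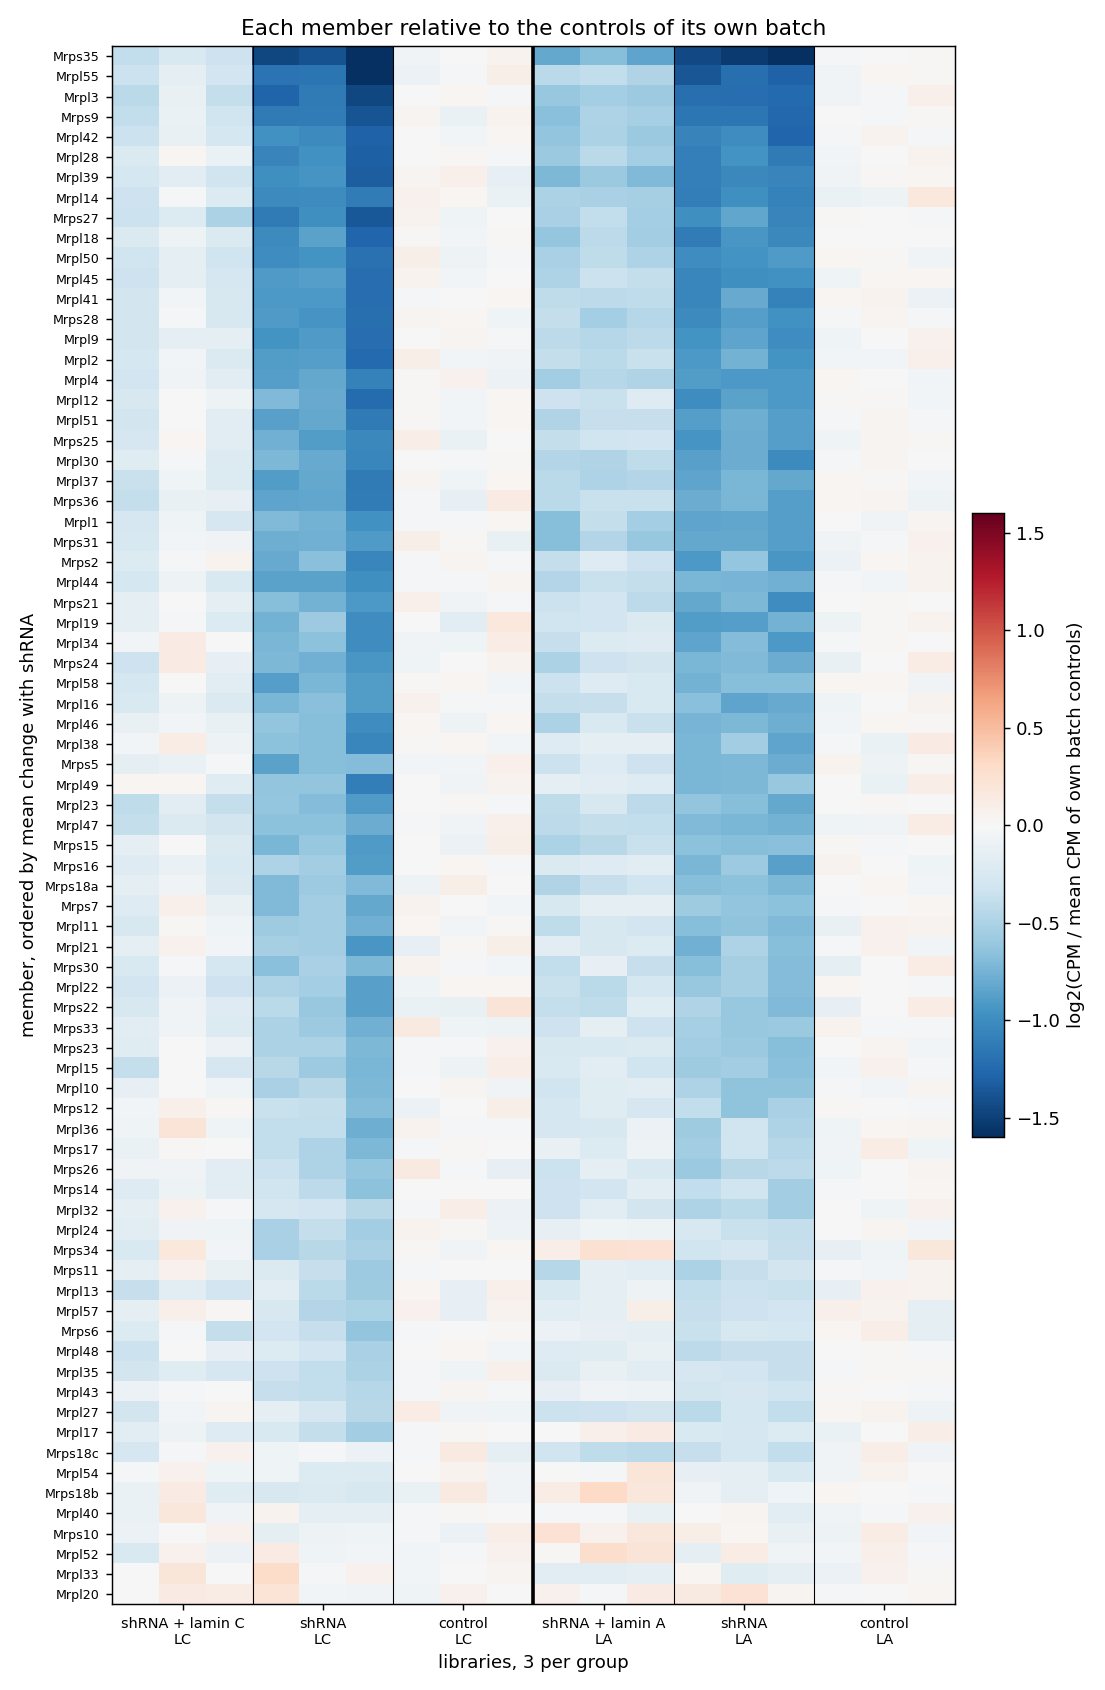
Log2 ratio of each member's CPM to the mean of the controls of its own batch, for 77 members (rows, ordered by the mean change with shRNA over both batches) in 18 libraries (columns, batch LC left and batch LA right). Blue is below the controls and red above. The shRNA columns are blue in nearly every row, lamin C columns are near white and lamin A columns are pale blue, while Mrpl20, Mrpl33 and Mrpl52 at the bottom stay near white throughout.

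At the other end 5 members were called in neither batch. Mrpl20, the counterpart of bacterial L20 (ENSMUSG00000029066, mm10 chr4:155802878-155809975, plus strand), had 33.8, 28.2 and 27.9 CPM in shRNA hearts, against 27.7, 30.5 and 29 CPM in controls of batch LC. In batch LA it had 30.2, 32.0 and 28.1 CPM in shRNA hearts, against 26.7, 27.5 and 27.9 CPM in controls. The groups overlapped in batch LC, while in batch LA each shRNA library lay above the controls by a margin that the test did not call (0.14 ± 0.07, edgeR adjusted p = 0.109). The other 4 were Mrpl33 (0.12 ± 0.08 in batch LC and -0.11 ± 0.08 in batch LA), Mrpl52 (0.01 ± 0.09 and -0.02 ± 0.09), Mrps10 (-0.10 ± 0.08 and 0.00 ± 0.08) and Mrpl40 (-0.08 ± 0.08 and -0.04 ± 0.08). Their missed threshold does not show that they were equal. With libraries scaled by their totals alone, the median of all genes moved up by 0.42 in batch LC and 0.44 in batch LA. The members' medians were then -0.30 and -0.27, still below the median of all genes. In that setting 7 and 10 members were called higher, among them Mrpl40 in both batches, beside 10429 and 10637 of all 17876 genes.

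The Mrps18 genes are 3 paralogs whose bacterial counterpart is the single protein S18, and their products occupy different places: Mrps18b and Mrps18c sit in the small subunit and Mrps18a in the large one. They differed in how far they moved. Mrps18a had 31.9, 34.7 and 31.9 CPM in shRNA hearts, against 49.2, 55.5 and 51.8 CPM in controls of batch LC, without overlap, and fell in both batches (-0.67 ± 0.06 and -0.69 ± 0.06). Mrps18b had 15, 15.3 and 15 CPM in shRNA hearts, against 16.7, 19.9 and 17.3 CPM in controls of batch LC. It was called there (-0.25 ± 0.08, edgeR adjusted p = 0.014) and not in batch LA (-0.09 ± 0.08, adjusted p = 0.38). Mrps18c was called in batch LA (-0.35 ± 0.09, adjusted p = 0.00189) and not in batch LC (-0.06 ± 0.09, adjusted p = 0.542), and the difference between its 2 effects was not called. Its batch LA libraries held 12.0, 12.8 and 11.8 CPM in shRNA hearts, against 15.1, 16.8 and 14.9 CPM in controls. Differences between the paralogs themselves were not tested.

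**Figure D4:**
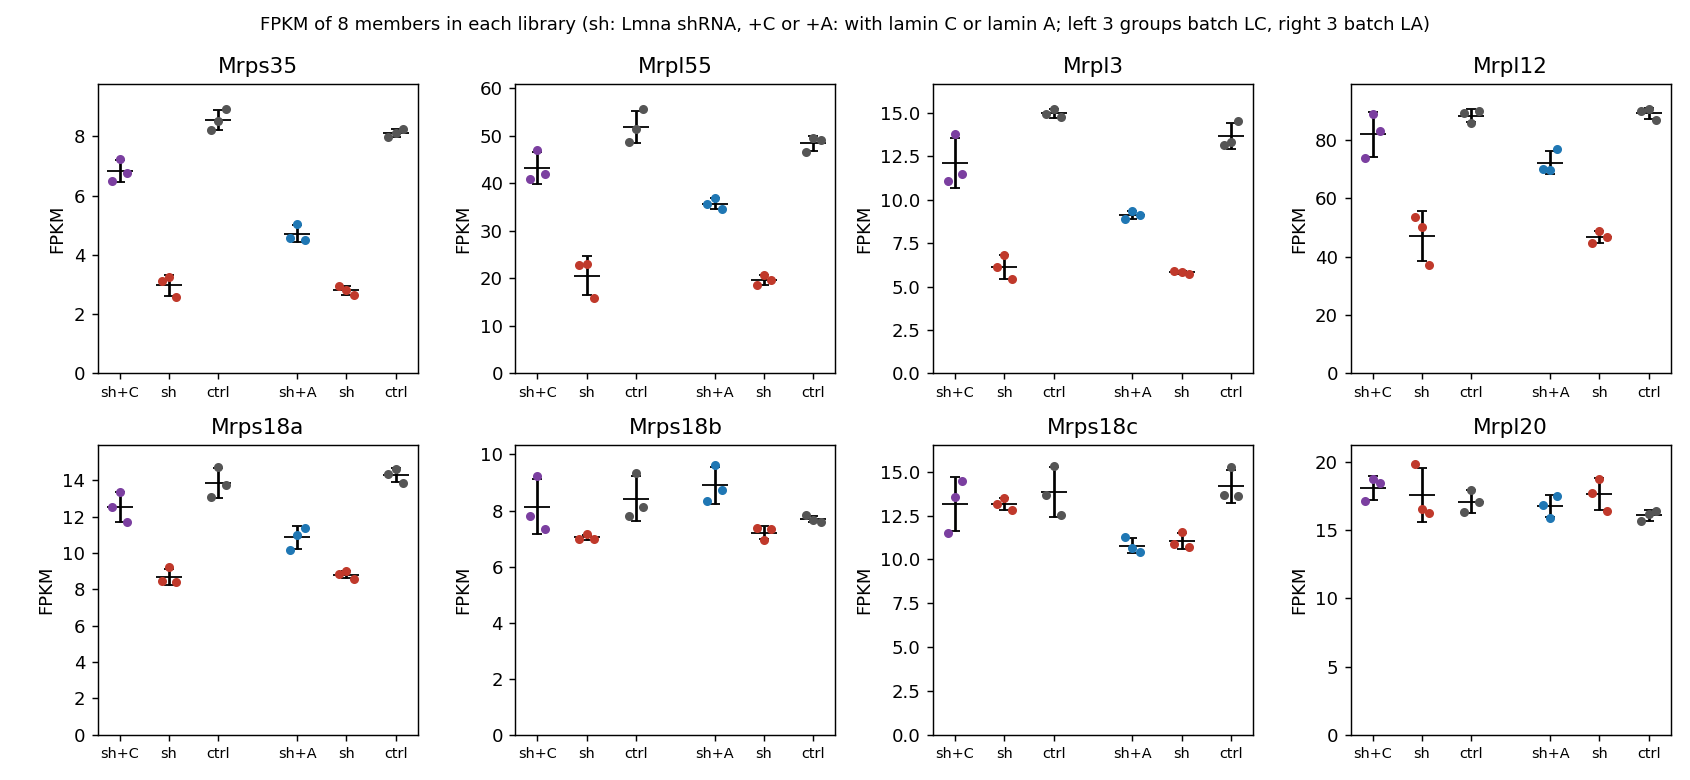
FPKM of 8 members in each library by group, with lamin, shRNA and control hearts of batch LC on the left and of batch LA on the right of each panel. Points are libraries, and bars are the mean and SD of 3. Mrps35, Mrpl55, Mrpl3 and Mrpl12 show the lowest values in shRNA hearts, Mrps18a shows a smaller difference, and Mrpl20 shows overlapping groups in batch LC.

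Both subunits took part. Of the Mrpl genes 44 of 48 tested were lower in each batch, with medians of -0.77 and -0.72, and of the Mrps genes 27 of 29 were lower in each batch, with medians of -0.64 and -0.63. The difference between the subunits was not tested. Members with a bacterial counterpart had medians of -0.72 in each batch in the large subunit (28 of 30 lower) and of -0.67 and -0.65 in the small subunit (14 and 15 of 16 lower). The remaining members, other than the 3 Mrps genes whose products lie outside the small subunit, had medians of -0.81 and -0.73 in the large subunit (16 of 18 lower in each batch) and of -0.62 and -0.60 in the small subunit (10 and 9 of 10 lower). The last 10 include Mrps18b, which is related to bacterial S18 but is not counted as its direct counterpart, and it was the 1 not called in batch LA.

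Since 71 of all 77 tested members were lower in each batch, full counts in the short role lists that follow are near that share. Within the large subunit, all 4 tested proteins of the stalk, which recruits the translation factors, were lower in both batches. They included Mrpl12 (-0.90 ± 0.09 and -0.92 ± 0.09), Mrpl10, which anchors it (-0.56 ± 0.07 and -0.59 ± 0.07), and Mrpl54, whose change was small (-0.17 ± 0.07 in each batch, edgeR adjusted p = 0.0333 and 0.0306). All 6 proteins around the exit of the nascent-chain tunnel were lower in both batches. Among these, Mrpl45, which ties the ribosome to the inner membrane, changed by -0.995 ± 0.08 in batch LC and -0.998 ± 0.08 in batch LA, while Mrpl17 changed by -0.38 ± 0.07 and -0.24 ± 0.07. In the central protuberance 6 of 8 were lower in each batch, with Mrpl55 and Mrpl18 (-1.04 ± 0.08 and -1.02 ± 0.08) far down, and Mrpl40 and Mrpl52 not called. Mrpl58, a peptidyl-tRNA hydrolase that rescues stalled ribosomes, changed by -0.84 ± 0.07 and -0.71 ± 0.07. The counts of Mrpl18 sit beside those of Tcp1, a gene on the opposite strand that overlaps it and had 6654 counts per library on average against 2850 for Mrpl18, and whether counting used the strand is not stated.

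In the small subunit, all 7 proteins of the decoding centre and messenger RNA path were lower in both batches, with a median of -0.74 in each. They included Mrps12, the counterpart of bacterial S12, a protein of decoding accuracy (-0.47 ± 0.08 and -0.51 ± 0.08), and Mrps7 (-0.69 ± 0.07 and -0.62 ± 0.07). A further 2 products named Mrps lie outside the small subunit besides Mrps18a. Mrps30 sits in the large subunit (-0.64 ± 0.09 and -0.63 ± 0.09), and Mrps36 is a component of the 2-oxoglutarate dehydrogenase complex (-0.92 ± 0.08 and -0.80 ± 0.08), so it belongs to the set by name alone. Over all 77 tested members, 71 were lower in each batch, with medians of -0.73 and -0.71. All 15 members whose human variants cause mitochondrial disease were lower in both batches, with medians of -0.83 and -0.75. Those linked to cardiomyopathy in humans included Mrpl44, a ribonuclease III-like protein (-0.89 ± 0.06 and -0.75 ± 0.06), and Mrps22 (-0.62 ± 0.11 and -0.59 ± 0.11).

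Other RNAs of heart muscle and of mitochondria moved with the members, and the part of the cell makeup in the result was not tested. All 12 cardiomyocyte markers were lower in both batches, and their summed level ran from 39126 to 45765 CPM in shRNA hearts, against 95417 to 99657 CPM in controls of batch LC. In batch LA it ran from 42516 to 44035 CPM in shRNA hearts, against 92867 to 95488 CPM in controls. Of 10 fibroblast markers 9 were higher in each batch and 1 lower in batch LA, with sums of 10733 to 14761 CPM in shRNA hearts against 2633 to 3297 CPM in controls of batch LC. Of 10 macrophage markers 9 were higher in each batch, with sums of 1157 to 1235 CPM in shRNA hearts against 318 to 352 CPM in controls of batch LC. In batch LA the fibroblast sums were 13316 to 14117 CPM in shRNA hearts against 3023 to 3334 CPM in controls. The macrophage sums in that batch were 1108 to 1146 CPM in shRNA hearts against 315 to 341 CPM in controls. All 8 endothelial markers were lower, with medians of -0.57 and -0.55, and so were all 5 erythroid markers, with medians of -1.32 and -1.62. The erythroid sums varied widely between libraries. They were 27.2 to 89.2 CPM in shRNA hearts against 80.2 to 155 CPM in controls of batch LC, which overlap. In batch LA they were 17.5 to 66.8 CPM in shRNA hearts against 103 to 161 CPM in controls. Every marker of these 5 cell types stood at 1 CPM or more in every group. All 6 T and NK cell markers were higher (medians 2.53 and 2.41), though their sums reached only 3.57 to 5.6 CPM in shRNA hearts, against 0.772 to 1.57 CPM in controls of batch LC. Of 6 mural markers 2 were lower and 3 higher in each batch, and of 4 B cell markers 1 was higher in batch LC and 1 lower in batch LA.

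The nuclear-encoded respiratory chain genes fell further than the members by their medians, and so did both mitochondrial ribosomal RNAs by their changes. All 44 nuclear-encoded respiratory chain genes were lower in both batches, with medians of -1.10 and -1.04, and both mitochondrial ribosomal RNAs were lower, namely mt-Rnr1 (-1.45 ± 0.11 and -1.49 ± 0.11) and mt-Rnr2 (-1.40 ± 0.09 and -1.46 ± 0.09). The libraries were made from poly-A RNA, in which ribosomal RNA is poorly captured. By contrast, of 81 cytosolic ribosomal protein genes tested 60 were higher and 2 lower in batch LC, and 54 were higher and 3 lower in batch LA, with medians of 0.30 and 0.26. Of all genes tested, 33.3% were called higher in batch LC and 32.4% in batch LA. These genes have many near-identical pseudogenes, so single ones are uncertain. Differences between these lists and the members were not tested.

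The other genes of mitochondrial translation followed the same direction. The 5 mitoribosome proteins that bear other names were all lower in both batches, from Chchd1 (-0.34 ± 0.09 and -0.27 ± 0.09) to Ptcd3 (-1.14 ± 0.07 and -1.05 ± 0.07), a pentatricopeptide protein of the small subunit. Of 25 assembly factors 23 were lower and 1 higher in each batch, beside 29.6% and 29% of all genes called lower. Among them Nsun4, a ribosomal RNA methyltransferase, changed by -0.95 ± 0.09 and -0.78 ± 0.09, and Fastkd2, an RNA-binding protein of large-subunit assembly, by -0.83 ± 0.08 and -0.72 ± 0.07. The exception was Mpv17l2 (0.38 ± 0.10 and 0.28 ± 0.10). Of 15 translation factors 14 were lower in batch LC and 13 in batch LA, led by Lrpprc, which stabilises mitochondrial messenger RNAs (-1.45 ± 0.07 and -1.36 ± 0.07), and including Tufm, the elongation factor that brings aminoacyl-tRNA to the ribosome (-1.28 ± 0.10 and -1.14 ± 0.10).

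Of 12 nuclear regulators of mitochondrial genes 7 were lower and 2 higher in batch LC, and 6 lower and 2 higher in batch LA. Of all genes tested, 29.6% and 29% were called lower, and 33.3% and 32.4% higher. Ppargc1a, the coactivator PGC-1α, changed by -1.24 ± 0.11 and -1.32 ± 0.11, its partner Esrrg by -0.93 ± 0.07 and -1.03 ± 0.07, and Esrra by -0.89 ± 0.06 and -0.90 ± 0.06. Gabpa, the DNA-binding subunit of the ETS factor GABP, changed less (-0.30 ± 0.07 and -0.32 ± 0.07). Nrf1 (0.09 ± 0.09 and 0.10 ± 0.09) and Yy1 (-0.10 ± 0.05 and -0.04 ± 0.05) were not called, and Myc was higher (1.92 ± 0.22 and 1.42 ± 0.21).

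Promoters of these genes are known to carry sites for such factors, so their sequences were searched. RefSeq promoters of build GRCm38.p6, each covering 250 bases before to 50 after the start site, matched 69 of the 78 members by symbol (75 promoters). The ETS core CCGGAAG, searched on both strands like all others, was in 34.7% of the members' promoters and in 8.86% of all 32851 promoters. The NRF1 core GCGCATGC was in 10.7% against 2.71%, and its matches on opposite strands can overlap. The YY1 core AAGATGGCG was in 10.7% against 1.4%, the E-box CACGTG in 9.33% against 7.15% (counted by gene, in 7.25% of the 69 members), and the ERR element TCAAGGTCA in 0 of the members' promoters against 0.423%. The promoters of protein-coding genes of the count table held the ETS core in 11.9%, the NRF1 core in 3.65%, the YY1 core in 1.92% and the E-box in 8.05%, so the E-box was near its background.

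Members holding these cores were found across the range of changes. Over the tested members with a promoter, the mean change of both batches had a median of -0.60 in the 25 with the ETS core, against -0.77 in the 43 without it. It was -0.50 in the 8 with the NRF1 core, against -0.72 in the 60 without it, and -0.73 in the 8 with the YY1 core, against -0.71 in the 60 without it. The 5 stretches below are shown because they hold these cores and belong to members at both ends and in the middle of the range. Each runs from 130 bases before to 20 bases after the start site, 5′ to 3′ on the gene's strand, with the matched cores in capitals.
Mrpl3: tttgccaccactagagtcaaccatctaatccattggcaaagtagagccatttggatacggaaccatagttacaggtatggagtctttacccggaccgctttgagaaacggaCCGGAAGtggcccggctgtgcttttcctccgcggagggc
Mrpl39: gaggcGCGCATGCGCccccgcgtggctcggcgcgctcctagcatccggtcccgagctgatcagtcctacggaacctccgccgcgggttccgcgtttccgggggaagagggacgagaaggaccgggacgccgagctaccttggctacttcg
Mrps18a: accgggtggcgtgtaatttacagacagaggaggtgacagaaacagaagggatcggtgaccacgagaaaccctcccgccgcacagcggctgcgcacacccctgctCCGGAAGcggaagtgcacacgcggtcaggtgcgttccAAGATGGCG
Mrpl33: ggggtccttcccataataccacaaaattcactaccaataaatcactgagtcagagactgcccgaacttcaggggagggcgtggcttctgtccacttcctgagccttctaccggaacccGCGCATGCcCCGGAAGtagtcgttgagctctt
Mrpl52: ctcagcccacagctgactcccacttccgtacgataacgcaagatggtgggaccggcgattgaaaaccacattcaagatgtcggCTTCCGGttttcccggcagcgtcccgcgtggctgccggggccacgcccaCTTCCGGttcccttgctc
The stretches lie at chr9:105053138-105053287 (Mrpl3, plus strand), chr16:84735225-84735374 (Mrpl39, minus strand), chr17:46110874-46111023 (Mrps18a, plus strand), chr5:31613821-31613970 (Mrpl33, plus strand) and chr14:54426779-54426928 (Mrpl52, plus strand) of GRCm38.p6. Mrpl3, whose mean change was -1.25, holds 1 ETS core, and Mrpl39, at -1.06, holds an NRF1 core read on both strands. Mrps18a, at -0.68, holds an ETS and a YY1 core. Mrpl33, at 0.01, holds an NRF1 and an ETS core side by side, and Mrpl52, at -0.01, holds the ETS core in reverse 2 times. The letters alone say nothing of a factor's binding in these hearts.

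The next comparison asked what an added lamin did in hearts given the shRNA. With lamin C 69 of 77 members were higher and 0 lower than in shRNA hearts of batch LC, with a median of 0.61, beside 25.7% of all genes called higher. With lamin A 63 of 77 were higher and 0 lower than in shRNA hearts of batch LA, with a median of 0.37, beside 16.1% of all genes called higher. At an unadjusted p under 0.05, and with DESeq2 and limma, no member was lower in either comparison. The summed level was 3419, 3942 and 3575 CPM in lamin C hearts, against 2528, 2508 and 2137 CPM in shRNA hearts of batch LC, and the groups did not overlap. It was 3016, 3177 and 3155 CPM in lamin A hearts, against 2367, 2448 and 2293 CPM in shRNA hearts of batch LA, also without overlap. Without replicate 3 of the shRNA hearts the median for lamin C was 0.52. These comparisons share their shRNA libraries with those above, so the same members rising here is no separate evidence about them.

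Mrps35 had 57.4, 63.6 and 60.0 CPM in lamin C hearts, against 27.5, 28.7 and 22.9 CPM in shRNA hearts, an increase of 1.2 ± 0.07 (edgeR adjusted p = 1.43e-10). It had 40.6, 44.6 and 40 CPM in lamin A hearts, against 26.2, 24.9 and 23.5 CPM in shRNA hearts, an increase of 0.75 ± 0.07 (adjusted p = 5.84e-07). With either lamin every library lay above every shRNA library. Mrpl55 rose by 1.07 ± 0.10 with lamin C and by 0.86 ± 0.10 with lamin A, and Mrpl28 by 1.00 ± 0.08 and 0.54 ± 0.08. Mrpl12, which also binds the mitochondrial RNA polymerase, rose by 0.80 ± 0.09 and 0.63 ± 0.09. Among the 8 members not called with lamin C and the 14 not called with lamin A were Mrpl20 (0.04 ± 0.07 and -0.08 ± 0.07), Mrpl33 (-0.06 ± 0.08 in each) and Mrpl40 (0.09 ± 0.08 and -0.02 ± 0.08). Mrps18c was not called with either lamin (0.00 ± 0.09 and -0.04 ± 0.09), whereas Mrps18b was higher with both (0.20 ± 0.08 and 0.30 ± 0.08, edgeR adjusted p = 0.0458 and 0.00923).

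**Figure D5:**
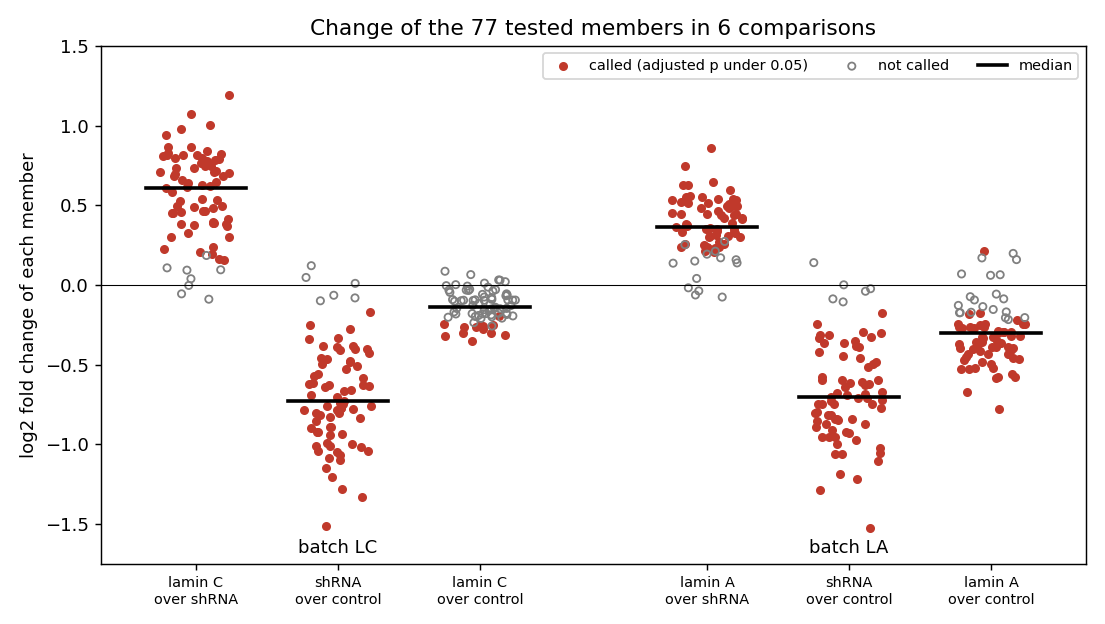
Log2 fold change of each of the 77 tested members in 6 comparisons, with batch LC on the left and batch LA on the right. Filled points were called at an adjusted p under 0.05, open points were not, and black lines are medians. The medians are 0.61, -0.73 and -0.14 in batch LC and 0.37, -0.71 and -0.30 in batch LA.

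Against controls, few members were called in lamin C hearts and most in lamin A hearts. By estimate 70 of 77 members lay below controls in each, beside medians over all genes of 0.002 and 0.02. In lamin C hearts 13 of 77 were lower and 0 higher than in controls of batch LC, with a median of -0.14, beside 6.18% of all genes called lower. At an unadjusted p under 0.05 there were 32 lower and 0 higher, and DESeq2 and limma also called 0 higher. In lamin A hearts 56 of 77 were lower and 1 higher than in controls of batch LA, with a median of -0.30, beside 22.1% of all genes called lower and 24.1% called higher. The summed level was 3419, 3942 and 3575 CPM in lamin C hearts, against 4074, 3995 and 4074 CPM in controls. It was 3016, 3177 and 3155 CPM in lamin A hearts, against 3873, 3983 and 3971 CPM in controls. Neither pair overlapped, although lamin C replicate 2 came close to the lowest control. The 13 members lower with lamin C included 12 of the 56 lower with lamin A.

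The count for lamin C rested on single libraries. It was 6 without control replicate 1, 8 without control replicate 3, 4 without lamin C replicate 1, 24 without lamin C replicate 2 and 4 without lamin C replicate 3. The calls over all genes moved as well, from 1105 of 17876 lower in the full fit. In the same order the refits called 709 of 18305, 871 of 18310, 441 of 18306, 1060 of 18297 and 560 of 18304 genes lower. The counts for lamin A ran from 45 to 54 when any 1 library was left out, beside 3355 to 3627 of all genes called lower.

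The members lowest against controls with lamin C were Mrps27, a pentatricopeptide protein of the small subunit (-0.35 ± 0.09, edgeR adjusted p = 0.00802), Mrps35 (-0.32 ± 0.07, adjusted p = 0.00467), Mrpl23 (-0.32 ± 0.08, adjusted p = 0.00801) and Mrpl47 (-0.30 ± 0.06, adjusted p = 0.00323), the last 2 of the tunnel exit. Mrps27 had 42.3, 46.1 and 37.7 CPM in lamin C hearts, against 55.9, 51.1 and 54.2 CPM in controls, without overlap. Mrpl47 overlaps Ndufb5, a respiratory chain gene on the opposite strand with 8478 counts per library on average against its own 832, and the share of its reads that belongs to Ndufb5 is unknown. The highest were Mrpl20 (0.09 ± 0.07), Mrpl33 (0.06 ± 0.08), Mrpl36 (0.03 ± 0.10) and Mrpl34 (0.03 ± 0.08), none of them called. Mrpl36 overlaps Ndufs6 on the opposite strand, which had 5910 counts per library on average against its own 797.

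With lamin A the lowest against controls were Mrps35 (-0.78 ± 0.07, edgeR adjusted p = 4.5e-08), Mrpl39, a protein with no bacterial counterpart (-0.67 ± 0.08, adjusted p = 1.17e-06), Mrpl42 (-0.58 ± 0.08) and Mrps31 (-0.58 ± 0.07). Mrps35 had 40.6, 44.6 and 40 CPM in lamin A hearts, against 70.6, 71.7 and 72.6 CPM in controls. Mrpl39 had 39.6, 43.2 and 39.9 CPM in lamin A hearts, against 62.5, 66.2 and 66.5 CPM in controls, and neither gene's groups overlapped. The highest were Mrps18b (0.21 ± 0.08, adjusted p = 0.0443), Mrps34 (0.20 ± 0.09), Mrpl52 (0.17 ± 0.09) and Mrps10 (0.16 ± 0.08). Mrps18b was the 1 member called higher, with 17.9, 20.6 and 18.7 CPM in lamin A hearts, against 16.7, 16.4 and 16.2 CPM in controls. It was not called when any 1 of the 3 controls was left out (adjusted p between 0.0799 and 0.113), without lamin A replicate 2 (0.204) or without lamin A replicate 3 (0.0685), nor by DESeq2 (0.0657). Mrps34 overlaps Mapk8ip3 on the opposite strand, which had 3443 counts per library on average against its own 1525.

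Whether the 2 lamins differed was tested as the difference of their effects, lamin C in batch LC minus lamin A in batch LA, each against its own batch. Set against shRNA hearts, 13 of 77 members had a larger increase with lamin C and 0 with lamin A, beside 8.84% of all genes called higher, with a median difference of 0.19. At an unadjusted p under 0.05 there were 30 and 1, and DESeq2 and limma also called 0 in favour of lamin A. Set against controls, 6 of 77 lay higher with lamin C and 0 with lamin A, beside 7.29% of all genes called higher, with a median difference of 0.18. At an unadjusted p under 0.05 there were 28 and 2, and DESeq2 and limma again called 0 in favour of lamin A. The called share in this second test was near that of all genes. By estimate, 71 of 77 members lay closer to their own controls with lamin C than with lamin A. The share of all genes that did so was not counted. Over all genes, 15% were called in either direction against controls with lamin C and 46.2% with lamin A. The difference against shRNA for the members most clearly called was 0.45 ± 0.10 for Mrps35, 0.45 ± 0.10 for Mrps31, 0.35 ± 0.08 for Mrpl44, 0.47 ± 0.11 for Mrpl28, 0.40 ± 0.11 for Mrpl37 and 0.42 ± 0.11 for Mrpl39. Set against controls it was 0.46 ± 0.10 for Mrps35, 0.47 ± 0.10 for Mrps31, 0.42 ± 0.11 for Mrpl28, 0.41 ± 0.11 for Mrpl39, 0.32 ± 0.10 for Mrpl4 and 0.35 ± 0.11 for Mrpl18.

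The counts of these differences moved with single libraries. In place of 13, the refitted count over shRNA was 7 without shRNA replicate 3 of batch LC, 21 without lamin C replicate 1, 6 without lamin C replicate 2, 8 without shRNA replicate 2 of batch LA and 8 without lamin A replicate 1. Beside these, in the same order, 1369 of 18226, 1488 of 18306, 1149 of 18297, 1282 of 18239 and 1373 of 18297 genes were called higher. In place of 6, the refitted count over controls was 13 without lamin C replicate 1, 2 without lamin C replicate 2 and 2 without replicate 3 of both control groups. Beside these, in the same order, 1238 of 18306, 858 of 18297 and 860 of 18271 genes were called higher. Which members stayed called was not counted. Lmna RNA itself differed between the lamin groups: it was 3.29 ± 0.09 above shRNA hearts with lamin C and 2.07 ± 0.08 with lamin A, and the part of this difference in the result was not tested.

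Cell type markers differed between the lamin groups to unlike degrees. Cardiomyocyte markers summed to 80748 to 84340 CPM in lamin C hearts and 61535 to 64685 CPM in lamin A hearts. Fibroblast markers summed to 3870 to 5427 CPM in lamin C hearts and 9685 to 12196 CPM in lamin A hearts, and macrophage markers to 492 to 582 CPM in lamin C hearts and 848 to 939 CPM in lamin A hearts. Endothelial markers summed to 918 to 945 CPM in lamin C hearts and 1035 to 1051 CPM in lamin A hearts, where controls held 1021 to 1225 CPM in batch LC and 1214 to 1310 CPM in batch LA. The median difference of the endothelial markers, lamin C minus lamin A, was 0.0517 over shRNA and -0.0508 over controls. The mitochondrial ribosomal RNAs were 0.71 ± 0.15 (mt-Rnr1) and 0.55 ± 0.12 (mt-Rnr2) higher over shRNA with lamin C than with lamin A. Among the regulators, Ppargc1a rose with lamin C over shRNA (1.05 ± 0.10) and was not called with lamin A (0.06 ± 0.11, edgeR adjusted p = 0.706), a difference of 0.98 ± 0.15 (adjusted p = 0.00017). Esrra rose with both (0.75 ± 0.06 and 0.33 ± 0.06), with a difference of 0.42 ± 0.09 (adjusted p = 0.00248).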

How the data were processed

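The authors deposited whole-number counts per gene and FPKM values for 18 libraries of heart apex. Per the labels' protocols, Trizol RNA was selected by poly-A for strand-marked libraries. StringTie 1.3.3b, DESeq2 1.20.0, HISAT2 2.0.5 and featureCounts 1.5.0-p3 are named, with no roles, in the submitters' processing notes, as is build mm10. No source used here states whether counts were made by strand, and 35 members overlap a gene on the opposite strand. The deposited FPKM values, judged from the numbers themselves, are counts per kilobase over an adjusted library size.

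Counts were tested with edgeR 4.0.16 in R 4.3.3 (TMM, filterByExpr, 1 fit of 6 groups, 12 residual degrees of freedom), after a test on simulated data. Standard errors come from the F statistic. Alternatives used DESeq2 1.42.0, limma 3.58.1, RLE factors, library totals, no filter, subsets of libraries and of members, and the replicate number as a block. Named members were the extremes of each comparison, those called in the differences, the highest and lowest FPKM, and examples of each role. The members and lists were chosen with earlier results of these data known. Other single genes of the lists and the promoters shown were chosen after their values were seen. The floor of 3 counts covers counting error only. The p-values measure the spread between these samples, which may be technical.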

Additional observations from a re-analysis of the deposited data

Results flagged for a closer look

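In 19 tests the effect of lamin C in batch LC differed from that of lamin A in batch LA, by edgeR's test of the difference itself with adjusted p under 0.05 over all genes. Over shRNA hearts they were 13 of 77 members, beside 8.84% of all genes called higher. Over controls they were 6 of 77, beside 7.29% of all genes called higher, which is near that share. The 6 members were all among the 13. Lamin and batch cannot be told apart beyond the subtraction of each batch's own shRNA hearts or controls, and both sets of tests share the lamin libraries. Over shRNA hearts, lamin C minus lamin A was 0.30 for Mrpl50, 0.33 for Mrpl9, 0.33 for Mrpl4, 0.34 for Mrpl51, 0.34 for Mrpl3, 0.35 for Mrpl44 and 0.37 for Mrpl18. It was 0.38 for Mrps15, 0.40 for Mrpl37, 0.42 for Mrpl39, 0.45 for Mrps31, 0.45 for Mrps35 and 0.47 for Mrpl28. Over controls it was 0.32 for Mrpl4, 0.35 for Mrpl18, 0.41 for Mrpl39, 0.42 for Mrpl28, 0.46 for Mrps35 and 0.47 for Mrps31. All values are differences of log2 fold changes, and all were positive.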

How the results depend on the processing

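With library totals in place of TMM, members called higher numbered 7 (batch LC) and 10 (batch LA) for shRNA over control, with medians of -0.30 and -0.27 and 47 lower in batch LA. Lamin C over shRNA then gave 9 lower (median 0.29), lamin A over shRNA 4 lower and 36 higher (0.16), lamin C over control 4 lower (-0.0289) and lamin A over control 23 lower and 9 higher (-0.0664). Of all 17876 genes, library totals called 10429 (batch LC) and 10637 (batch LA) higher for shRNA over control, and 2270 lower in batch LA. They called 9213 lower for lamin C over shRNA, and 6205 lower and 1280 higher for lamin A over shRNA. Over control they called 293 lower with lamin C, and 1760 lower and 7676 higher with lamin A. Lamin C minus lamin A gave 1 lower and 6 higher over shRNA (0.0825), and 4 lower and 3 higher over control (0.0589). Of all genes, 2749 were lower and 924 higher over shRNA, and 2372 lower and 681 higher over control. With library totals 49 changes of single members turned sign over all comparisons. The 22 of them that belong to named members were, in batch LC, Mrpl17 0.0404, Mrpl54 0.26, Mrpl40 0.34, Mrps10 0.33, Mrps18b 0.17 and Mrps18c 0.36. In batch LA they were Mrps34 0.12, Mrpl33 0.33, Mrpl17 0.20, Mrpl54 0.26, Mrpl40 0.40, Mrpl52 0.41, Mrps18b 0.35 and Mrps18c 0.0855. For lamin C over shRNA they were Mrpl17 -0.0766, Mrpl54 -0.15, Mrpl20 -0.28, Mrpl40 -0.22, Mrps10 -0.22 and Mrps18b -0.11, and for lamin A over control Mrps7 0.0545 and Mrpl10 0.0125. With library totals without mitochondrially encoded genes, chosen after seeing the data, shRNA over control gave 3 and 2 higher (medians -0.50 and -0.49), with Mrpl54 at 0.0593 and 0.0401. Lamin C over shRNA gave 2 lower (0.46), lamin A over shRNA a median of 0.29, lamin C over control 4 lower (-0.0541), lamin A over control 37 lower and 7 higher (-0.17), and lamin C minus lamin A over shRNA 7 higher. Of all 17757 genes tested in that setting, 8262 and 8066 were higher for shRNA over control, and 6814 lower for lamin C over shRNA. Over control 364 were lower with lamin C, and 2522 lower and 6001 higher with lamin A. For lamin C minus lamin A over shRNA 1133 were higher. With limma on log2(FPKM + 1) the medians were -0.63 (shRNA, batch LC) and 0.52 (lamin C over shRNA). Among the 37 members that overlap no other gene, 34 and 34 were lower with shRNA, 34 and 32 higher with lamin C and lamin A, 6 and 28 lower than controls with 0 higher, and 8 higher for lamin C minus lamin A over shRNA. For lamin A over control, 0 were higher with DESeq2, RLE factors or without mitochondrially encoded genes, and 2 with the compared groups alone. For lamin C minus lamin A over control, 12 were higher with DESeq2, 12 without the filter, 13 with the compared groups alone and 2 without replicate 3 of both control groups, which were left out for their neighbouring numbers in the labels. Beside these, in the same order, 1554 of 17876, 1490 of 31922, 1527 of 16786 and 860 of 18271 genes were called higher. Leaving out 1 library gave 4 to 24 lower for lamin C over control, 0 to 1 higher for lamin A over control, 6 to 21 higher (median 0.11 to 0.25) for the lamin difference over shRNA, and 2 to 13 higher and 0 to 1 lower for that over control. The medians ran from -0.76 to -0.65 (shRNA, batch LC), 0.52 to 0.64 (lamin C over shRNA) and -0.0763 to 0.0603 (difference of shRNA effects). The cause of these shifts was not tested. Libraries with the same replicate number did not deviate together (correlations between -0.05 and 0.06), and the fit with the replicate number as a block called 71 and 71 lower with shRNA, 67 and 62 higher with lamin C and lamin A, 13 lower with lamin C and 57 lower and 1 higher with lamin A against controls. The pooled SD between replicates of the members' mean log2 CPM was 0.0734, which with 3 libraries a group limits what could be called.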
